A study of Mus musculus with 15 samples.

Results

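Pericytes are the contractile cells that wrap capillaries, and mesangial cells are their counterparts inside the glomerulus, where they hold the capillary loops together. Both are recruited by platelet-derived growth factor from the endothelium acting on the receptor Pdgfrb, and both share a lineage with the renin cells of the juxtaglomerular arteriole. They are recognised by surface proteins (Pdgfrb, Cspg4, Mcam), regulators of G protein signalling (Rgs5, Rgs4), a vascular potassium channel (Kcnj8, Abcc9), isoforms of respiratory chain subunits (Ndufa4l2, Cox4i2) and, in the mesangium, an integrin (Itga8). These 10 genes were taken as a list of markers by name. Each had exactly 1 probe set of its own, so 10 of the 19938 genes with such a probe set are described.

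The values are log2 probe set signals of 15 mouse gene arrays in 4 groups. Metanephric mesenchyme (MM) cells, from which the nephrons form, were picked singly with glass needles (4 arrays, cells 14, 15, 16 and 19) from embryos of Crym-GFP mice, which carry the transgene Tg(Crym-EGFP)GF82Gsat, at 11.5 days post coitum and with sex unknown. Juxtaglomerular (JG) cells were picked singly by their fluorescence, also with needles (5 arrays, cells 4 to 8), from adult male mice after enzyme digestion; the reporter is given as Ren1c-YFP, although the dissection text of these samples names Ren1d GFP. Adult male Ren1c-YFP cortex, which holds many cell types, was either diluted and amplified like the cells with 32 recorded rounds (diluted cortex, 3 arrays, A, B and C) or labelled by a NuGEN kit with 1 recorded round (standard-labelled cortex, 3 arrays, A, B and C). Strain is unspecified for all samples. No label names the animal behind a cell or a cortex library, so the cells of a group are treated as 1 sample without a test, and p-values between cortex groups measure only the spread between these libraries, which may be technical. In cortex, fewer cells of a type and less RNA per cell cannot be told apart.

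The background of each array was taken as the 99th percentile of its 1205 probe sets for olfactory and vomeronasal receptors. MM cells had a background between 7.13 and 7.56, JG cells between 7.55 and 7.93, diluted libraries between 6.18 and 6.30 and standard-labelled ones between 6.30 and 6.52. A signal above it is called above background. The share of all genes above background was 10.9% to 21.1% per MM cell, 6.78% to 14.2% per JG cell and 43.7% to 50.5% per cortex library, and JG cells 5 (6.78%) and 4 (9.06%) had the lowest shares. Crip1, a LIM domain protein gene on the renin cell list, was at 11.96 to 13.01 in the JG cells and 8.62 to 9.14 in diluted cortex. It was the only 1 of 4 measured genes of that list above background in any JG cell: Rgs2, Gja5 and Aldh1a2 were below it in 5 of 5, and their JG means stood at -2.96, -0.10 and -1.56 relative to diluted cortex once the shift of the receptor probe sets was subtracted. Ren1, Ren2 and Akr1b7 had no probe set of their own here, so the renin cell label could be checked on these 4 genes alone. Of the MM cells, cell 16 had the nephron progenitor gene Six2 at 10.13 (7.53 in cell 14, and below background in the others). Cells 14 and 19 had the stroma progenitor gene Foxd1 at 9.03 and 11.33. Another stroma progenitor gene, Meis1, was above background in cells 14 and 15 and below it in cells 16 and 19. Of 10 nephron progenitor genes, 5, 2, 5 and 4 were above background in MM cells 14, 15, 16 and 19. Of 7 stroma progenitor genes, 3, 1, 0 and 2 were. No MM cell was assigned to a lineage from these values.

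Rgs5 and Rgs4 are shown by sequence because they are close relatives and next to each other in the genome, with 0 protein-coding genes between them in RefSeq on GRCm38.p6, and yet only Rgs5 was seen above background on any array. The 250 bases before each start site follow, from RefSeq on GRCm38.p6, chr1:169655251-169655500 on the plus strand for Rgs5 and chr1:169747643-169747892 on the minus strand for Rgs4. Capitals mark matches to a CCAAT box (CCAAT, which reads ATTGG on the other strand) and to a TATA box (TATAAA), searched on both strands. The motifs were chosen after the signals were seen.
Rgs5: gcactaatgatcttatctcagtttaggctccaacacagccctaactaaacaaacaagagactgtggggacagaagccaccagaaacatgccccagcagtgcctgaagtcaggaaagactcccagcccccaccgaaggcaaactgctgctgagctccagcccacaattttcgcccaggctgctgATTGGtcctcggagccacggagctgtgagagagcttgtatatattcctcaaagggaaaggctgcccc
Rgs4: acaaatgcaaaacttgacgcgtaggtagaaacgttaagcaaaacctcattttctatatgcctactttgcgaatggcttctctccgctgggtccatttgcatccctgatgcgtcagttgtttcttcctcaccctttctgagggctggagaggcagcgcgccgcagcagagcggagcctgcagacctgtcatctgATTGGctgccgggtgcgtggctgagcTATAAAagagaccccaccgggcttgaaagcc

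The CCAAT match lay at -67 to -63 before the Rgs5 start and at -57 to -53 before the Rgs4 start, and 33.8% of 32851 such windows of all genes hold one. The exact letters TATAAA, at -31 to -26, were in the Rgs4 window and not in that of Rgs5, and 12.4% of all windows hold them. Variants of the TATA box were not searched, so the letters tatata in the printed Rgs5 window were not counted. Whether the 2 genes differ in having a TATA box is thus not read from this search. Neither window held a hypoxia response core (ACGTG, in 16.6% of all windows), a cAMP response element (TGACGTCA, 1.55%) or a CArG box of smooth muscle genes (1.47%). Of the 7 members with a promoter entry, Mcam alone held a cAMP response element, at -29 to -22. A match is a description of letters in the window and not a binding site.

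Few of these markers stood above background in single cells. Over 10 genes and 5 JG cells, 6 of 50 values did, against 10.2% of values over all genes, and over the 4 MM cells 6 of 40 did, against 17.1%. In JG cells the 6 values belonged to Rgs5 and Ndufa4l2, so 2 of 10 genes were above background in 1 or more JG cells, where 21.3% of all genes were. In MM cells they belonged to Mcam, Kcnj8 and Cox4i2, or 3 of 10 genes against 30.7% of all genes. Diluted cortex gave 15 of 30 values above background (49.1% over all genes) and standard-labelled cortex 14 of 30 (46.6%). As a count at this background, then, the list was detected about as often as genes in general, and the results lie in single genes and cells.

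**Figure D1:**
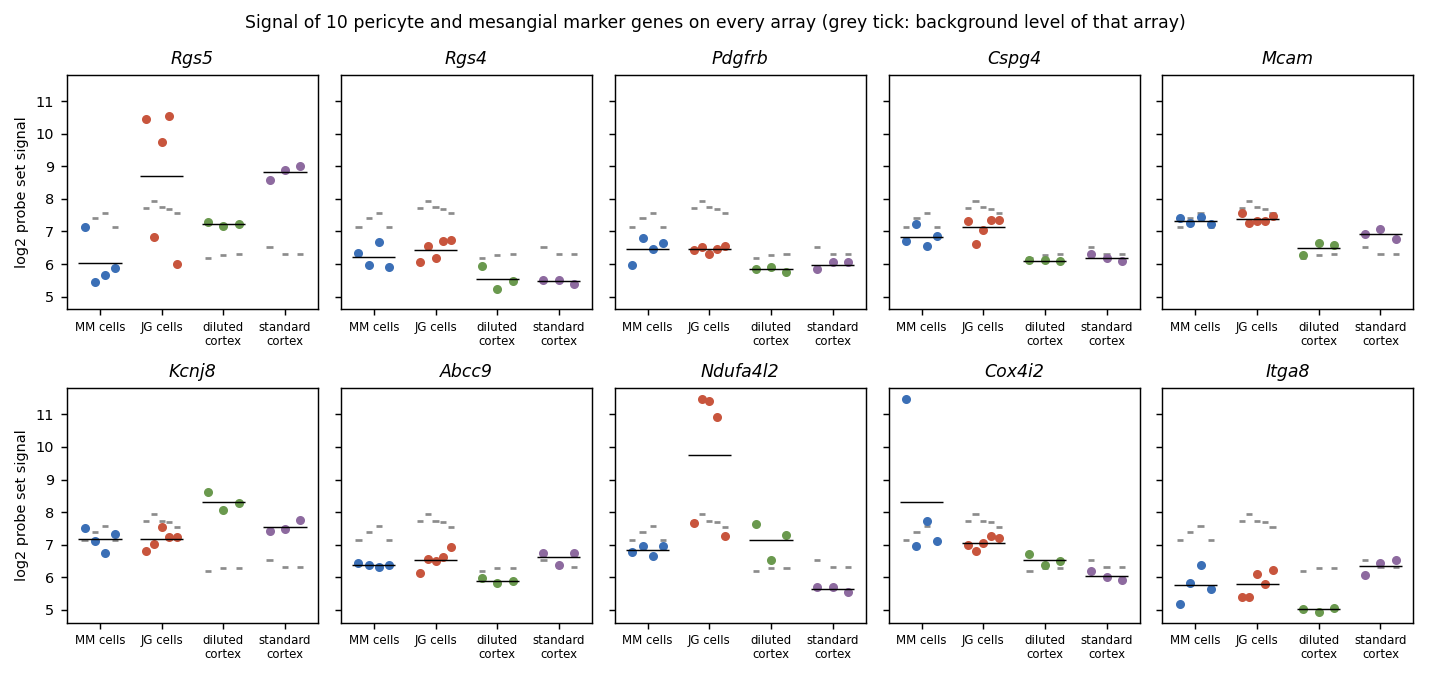
Each panel plots 1 gene, with the log2 probe set signal on the vertical axis and 1 point per array in 4 groups (MM cells, JG cells, diluted cortex, standard-labelled cortex); black lines are group means and grey ticks the background level of each array. Rgs5 and Ndufa4l2 rise above the ticks in 3 JG cells each, Cox4i2 reaches 11.48 in 1 MM cell, and Rgs4, Pdgfrb and Cspg4 stay below the ticks on all 15 arrays.

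Among the surface proteins, Pdgfrb (probe set 10456046), the receptor that recruits pericytes and mesangial cells, was below background on all 15 arrays. Its signal was 5.98, 6.80, 6.47 and 6.63 in MM cells 14, 15, 16 and 19, and 6.42, 6.51, 6.32, 6.48 and 6.56 in JG cells 4 to 8. Diluted libraries A, B and C had 5.85, 5.92 and 5.76, and standard-labelled libraries had 5.84, 6.06 and 6.05. The higher signal of the cells over cortex, 0.61 in JG and 0.63 in MM cells, was smaller than the shift of the receptor probe sets, whose median stood 1.02 above diluted cortex in JG cells and 0.81 above it in MM cells.

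Cspg4 (probe set 10585588), the proteoglycan NG2 of pericytes, was likewise below background on every array. MM cells 14, 15, 16 and 19 had 6.72, 7.23, 6.55 and 6.86, and JG cells 4 to 8 had 7.33, 6.61, 7.03, 7.35 and 7.34. The cortex libraries lay closer together, with 6.12, 6.12 and 6.08 after dilution and 6.30, 6.18 and 6.11 with standard labelling. All cells were above all cortex libraries in signal, which is also the direction of the receptor shift. Beyond the receptor shift it differed by 0.002 between JG cells and diluted cortex and by -0.08 between MM cells and diluted cortex.

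Mcam (probe set 10584674), an adhesion protein of pericytes and endothelium, gave nearly the same signal in all cells. It was 7.41, 7.24, 7.46 and 7.23 in MM cells 14, 15, 16 and 19, and 7.56, 7.27, 7.33, 7.32 and 7.49 in JG cells 4 to 8. MM cells 14 and 19 lay above their background of 7.15 and 7.13 by a small margin, and no JG cell did. All 6 cortex libraries were above background, at 6.28, 6.66 and 6.59 in diluted and 6.93, 7.07 and 6.78 in standard-labelled cortex.

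Of the G protein regulators, Rgs5 was high in some JG cells and Rgs4 in none. Rgs5 (probe set 10351455), which speeds the shut-off of G protein signals in mural cells, measured 10.44 in JG cell 4, 9.76 in cell 6 and 10.55 in cell 7, but 6.82 in cell 5 and 5.99 in cell 8. The first 3 cells were 2.02 to 2.86 above the background of their arrays and the other two below it. In MM cells Rgs5 was 7.12, 5.44, 5.67 and 5.88, all below background, the nearest being cell 14 with a background of 7.15. Cortex was above background throughout, with 7.30, 7.16 and 7.23 in diluted and 8.57, 8.90 and 9.01 in standard-labelled libraries.

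The JG mean of Rgs5 was 8.71 ± 2.15 (SD over 5 cells), while diluted cortex had 7.23 ± 0.07 (SD, n = 3) and MM cells 6.03 ± 0.75 (SD over 4 cells). It joins high and low cells, and the groups overlap: cells 5 and 8 lay below every diluted library and the other 3 above. Beyond the receptor shift the JG mean was 0.45 above diluted cortex. Leaving out 1 cell moved that value to 0.05 (cell 4), 0.94 (cell 5), 0.20 (cell 6), -0.02 (cell 7) or 1.09 (cell 8), so its size and its sign rest on single cells. The MM mean was lower than diluted cortex by -2.02 beyond the shift, without overlap, and lower than the JG mean by -2.47, where the cells overlap. Since no MM cell was above background, each MM value was also set to the background of its array, with no shift subtracted. The JG mean was then 2.64-fold higher than the MM cells, and for diluted cortex no bound above 1 was left. JG cells 5 and 8 were kept as measured though below background, and the receptor shift of -0.21 between MM and JG cells was left in. The value of 2.64 is therefore not a strict lower bound. In the order of means, standard-labelled cortex (8.83 ± 0.23, SD, n = 3) stood first, and the JG mean did not differ from it or from diluted cortex beyond the spread of the JG cells. MM cells came last.

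Rgs4 (probe set 10359908), whose protein acts on the same class of G proteins, was below background on all 15 arrays. MM cells 14, 15, 16 and 19 had 6.34, 5.97, 6.67 and 5.90, and JG cells 4 to 8 had 6.05, 6.55, 6.17, 6.72 and 6.74. Diluted libraries had 5.94, 5.25 and 5.48, and standard-labelled libraries 5.52, 5.52 and 5.38. The JG cells that were high in Rgs5 were not set apart by Rgs4. Of 8 further genes of the R4 family of RGS proteins, at most 1 was above background in any cell. Rgs2, which acts on the signals of vasoconstrictors, was below background in all cells, between 5.01 and 6.17. The 3 diluted libraries had Rgs2 between 7.60 and 7.91, and the 3 standard-labelled ones between 8.60 and 8.96.

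The vascular potassium channel is built from the pore Kcnj8 and the sulphonylurea receptor Abcc9, whose genes are neighbours with 0 protein-coding genes between them. Kcnj8 (probe set 10549102) was highest in diluted cortex, at 8.62, 8.08 and 8.28, and lower in standard-labelled cortex, at 7.41, 7.48 and 7.75. It was 7.52, 7.10, 6.74 and 7.34 in MM cells, with cells 14 and 19 above background. In JG cells Kcnj8 was 6.80, 7.01, 7.53, 7.25 and 7.24, and each value was below background.

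The means of JG cells (7.17 ± 0.28) and MM cells (7.17 ± 0.34) were alike and did not overlap with diluted cortex (8.33 ± 0.28, SD, n = 3). Beyond the receptor shift the measured Kcnj8 differences were -2.18 in JG and -1.97 in MM cells. They rest on signals below background in all 5 JG cells and in 2 of 4 MM cells. With JG cells set to their background, and no shift subtracted, diluted cortex was at least 1.51-fold higher. It was the only member lower by 1 log2 unit or more in JG cells, a size that 40.8% of all genes reached in that direction.

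Abcc9 (probe set 10549108) was above background in the 3 standard-labelled libraries only, at 6.75, 6.37 and 6.73. Diluted libraries had 5.96, 5.81 and 5.89. MM cells had 6.44, 6.37, 6.31 and 6.37, and the 5 JG cells lay between 6.13 (cell 4) and 6.92 (cell 8), all below background. The channel genes of the pancreatic type, Kcnj11 and Abcc8, were above background in 0 of 5 JG cells. Among the MM cells Kcnj11 passed it in cell 15 alone, at 7.45.

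The respiratory chain isoforms were high in some cells and at background in others. Ndufa4l2 (probe set 10366951), a hypoxia-induced relative of a cytochrome oxidase subunit that marks pericytes, measured 11.49 in JG cell 5, 11.41 in cell 6 and 10.92 in cell 7. In JG cells 4 and 8 it was 7.67 and 7.27, below their background of 7.73 and 7.55. All 4 MM cells were below background, at 6.77, 6.96, 6.64 and 6.97. Diluted cortex was above background at 7.65, 6.52 and 7.30, and standard-labelled cortex below it at 5.71, 5.69 and 5.54.

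The JG mean of Ndufa4l2 was 9.75 ± 2.10 (SD over 5 cells) and the diluted cortex mean 7.16 ± 0.57 (SD, n = 3). The difference of 2.59 was 1.57 beyond the receptor shift, and 1.15 to 2.15 when any 1 array of the comparison was left out. It was the only member that reached 1 log2 unit above diluted cortex in JG cells, which 0.587% of all genes did. The groups overlap, since JG cell 8 lay below diluted libraries A and C. MM cells were lower than every JG cell, with a mean difference of -2.92, or -2.70 beyond the shift. With MM cells set to their background, and no shift subtracted, the JG mean was 5.43-fold higher. That value is not a strict lower bound, since JG cells 4 and 8 were kept as measured though below background.

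Ndufa4, the ubiquitous relative of Ndufa4l2, was present in the same 3 JG cells, at 10.61, 12.88 and 11.41 in cells 5, 6 and 7. It was below background in cells 4 and 8, at 6.12 and 5.85. MM cells had Ndufa4 at 12.19 to 12.82 and no Ndufa4l2 above background, and cortex had it at 12.88 to 13.12. The ubiquitous relative of Cox4i2, Cox4i1, was at 12.56 to 13.06 in JG cells 5 to 8 but at 6.54 in cell 4. JG cell 4 thus lacked both ubiquitous subunits above background.

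Cox4i2 (probe set 10477179), an oxygen-responsive isoform of a cytochrome oxidase subunit, stood out in MM cell 14 at 11.48. The other MM cells had 6.96, 7.72 and 7.10, of which cell 16 was above its background of 7.56. JG cells 4 to 8 were all below background, at 6.99, 6.82, 7.04, 7.27 and 7.21. Diluted cortex was slightly above background at 6.72, 6.39 and 6.49, and standard-labelled cortex below it at 6.20, 6.02 and 5.92. The MM mean of 8.31 ± 2.14 (SD over 4 cells) was 1.46 above the JG mean beyond the shift, and 0.36 without cell 14. Against diluted cortex the MM mean was 0.96 higher beyond the shift, and -0.16 without cell 14. It passed 1 log2 unit when MM cell 15, 16 or 19 or diluted library A was left out, at 1.41, 1.24, 1.33 and 1.06. Cox4i1 was at 12.44 to 12.66 in all 4 MM cells, so the high Cox4i2 value came beside a usual level of its relative.

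Itga8 (probe set 10480090), the integrin subunit of mesangial cells that in the embryo helps the mesenchyme attract the ureteric bud, was below background in every cell. It was 5.17, 5.84, 6.37 and 5.65 in MM cells 14, 15, 16 and 19, and 5.39, 5.39, 6.10, 5.80 and 6.23 in JG cells 4 to 8. Diluted libraries had 5.04, 4.94 and 5.07, while standard-labelled libraries A, B and C had 6.07, 6.45 and 6.53, of which B and C passed background. Its partner Itgb1 was at 9.96, 10.84 and 10.80 in MM cells 14, 15 and 19 but below background in MM cell 16 (6.26) and in all JG cells (5.58 to 7.56). Npnt, the ligand nephronectin, was above background in cortex only, at 7.46 to 9.31.

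Set side by side, the JG cells carried different combinations of these markers. Cells 6 and 7 had both Rgs5 and Ndufa4l2, cell 4 had Rgs5, cell 5 had Ndufa4l2 and cell 8 had neither. Cells 4 to 8 had 9.06%, 6.78%, 9.98%, 10.7% and 14.2% of genes above background. This share does not measure the loss of a single gene, and the ubiquitous Ndufa4 was itself below background in cells 4 and 8. Whether loss of single genes during amplification shaped these combinations was not tested. Without JG cells 4 and 5, the cells with the smallest shares, 4 of 30 member values were above background. In the cells kept, 6, 7 and 8, the shares over all genes were 9.98%, 10.7% and 14.2%. Nothing particular to the markers is read from this count.

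Other pericyte and mesangial genes followed neither marker in all cells. Cd248, the pericyte protein endosialin, named here after its values were seen, was at 10.62 in JG cell 4 and 10.70 in cell 7 but at 7.17 to 7.65 in the other JG cells. Sfrp2, a secreted Wnt modulator on the mesangial list, was at 12.88, 10.39, 11.85 and 12.20 in JG cells 4, 6, 7 and 8 and at 7.44 in cell 5. Its JG mean of 10.95 was 3.20 above diluted cortex, or 2.17 beyond the shift. Sfrp2 was also above background in 3 of 4 MM cells, at 11.03 in the highest, and in all cortex libraries. Agtr1a, an angiotensin receptor of mesangial and arteriolar cells, was above background in 4 of 5 JG cells, at 7.96 to 8.68, and in 0 of 4 MM cells. All cortex libraries also had it above background, with a mean of 8.20 after dilution and 7.90 with standard labelling. The JG mean of Agtr1a, 8.02, was below the diluted mean even before the receptor shift of 1.02 was subtracted.

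Of 16 further pericyte genes, 3, 1, 2, 4 and 2 were above background in JG cells 4 to 8, and of 11 further mesangial genes 2, 0, 2, 3 and 6. Relative to diluted cortex and beyond the shift, 0 of the 16 pericyte genes were higher by 1 log2 unit or more and 1 was lower, where 0.587% of all genes were higher and 40.8% lower, and their median was -0.05. Of the 11 mesangial genes 1 was higher and 4 were lower, the latter a share near that of all genes, with a median of -0.83, beside -0.20 for the 10 markers and -0.46 for all genes. Heyl, a Notch target in mural cells, was above background in all 9 cells, between 7.25 and 7.63 in the MM cells and between 7.96 and 8.54 in the JG cells. The backgrounds there were 7.13 to 7.56 and 7.55 to 7.93. Heyl also passed in the 3 diluted libraries, and its mean beyond the shift was 0.74 (JG) and 0.27 (MM) above diluted cortex.

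**Figure D2:**
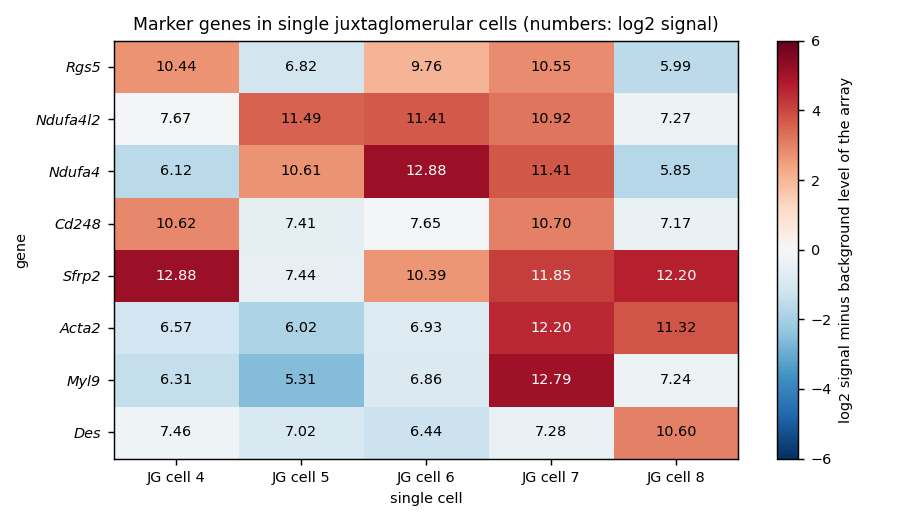
Rows are genes and columns the 5 JG cells; numbers are log2 signals and colours the signal minus the background level of that array (red above, blue below). Rgs5 is high in cells 4, 6 and 7 and Cd248 in cells 4 and 7 only. Ndufa4l2 and Ndufa4 share high values in cells 5, 6 and 7, and Acta2 is high in cells 7 and 8.

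Markers of other cell types were read in the same cells. Of 10 smooth muscle genes, 0, 0, 0, 2 and 4 were above background in JG cells 4 to 8, with Acta2 at 12.20 in cell 7 and 11.32 in cell 8. The mean log2 signal of that list ranged from 6.65 to 8.0 over JG cells and from 6.65 to 7.64 over MM cells. Over diluted libraries it ranged from 6.88 to 7.39 and over standard-labelled ones from 6.48 to 7.01. Rgs5 was high in cells 4 and 6, where 0 of the 10 smooth muscle genes were above background, and in cell 7, where 2 were. It was low in cell 5, where 0 were, and in cell 8, where 4 were.

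Of 10 proximal tubule genes 0, 2, 0, 0 and 3 passed in JG cells 4 to 8, with Miox, named after its values were seen, at 12.63 in cell 5. That list mean ranged from 6.40 to 7.27 over JG cells, and from 6.25 to 6.53 over MM cells, and it was at most 11.07 over diluted and 11.12 to 11.18 over standard-labelled libraries. Of 11 endothelial genes 0 to 2 passed in a JG cell, and of 8 macrophage and leukocyte genes 0 passed in any cell. Endothelial list means ranged from 6.65 to 7.20 over JG cells, from 6.68 to 6.90 over MM cells, from 8.21 to 8.34 over diluted and from 7.23 to 7.48 over standard-labelled libraries. Macrophage list means ranged from 6.0 to 6.57, 5.60 to 6.16, 7.14 to 7.23 and 5.79 to 5.91 in the same order. Ndufa4l2 was high in cell 5, which also held Miox, and in cells 6 and 7, where 0 proximal tubule genes passed. The part of other cell types in the Rgs5 and Ndufa4l2 values was not tested.

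As a list, the members did not separate the cells from cortex. The median difference over the 10 genes between JG cells and diluted cortex was 0.83, where the median over all genes was 0.56 and the receptor shift 1.02, so it was -0.20 beyond the shift. For MM cells against diluted cortex it was 0.64, with 0.42 over all genes and a shift of 0.81. Between MM and JG cells it was -0.12, with -0.19 over all genes and a shift of -0.21. These comparisons share groups, so they are not independent of each other.

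Counted at 1 log2 unit beyond the shift, MM cells had 0 members higher than diluted cortex (0.787% of all genes were), with Cox4i2 just short of the limit at 0.96, and 3 lower, Rgs5, Kcnj8 and Ndufa4l2 (36.9% of all genes). The Ndufa4l2 difference, -1.14, fell short of the limit without MM cell 16 or without diluted library A, at -0.89 at the least. Compared with JG cells, MM cells had 1 member higher, Cox4i2, which rests on MM cell 14 (10.8% of all genes were higher). They had 2 lower, Rgs5 and Ndufa4l2, a size that 0.732% of all genes reached, and both stayed beyond it when any 1 array was left out.

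**Figure D3:**
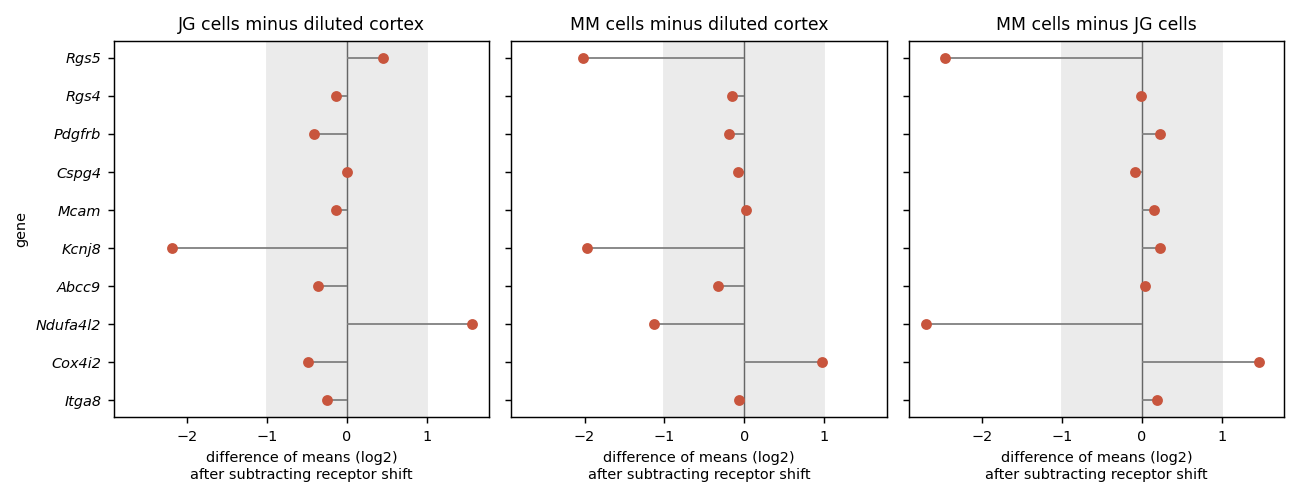
For each gene the point gives the difference of group means on the log2 scale after the median shift of the receptor probe sets is subtracted, for JG cells minus diluted cortex, MM cells minus diluted cortex and MM cells minus JG cells; the grey band spans -1 to 1. Most members lie inside the band, and Rgs5, Kcnj8, Ndufa4l2 and Cox4i2 are those that leave it in 1 or more panels.

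The genes most like 3 chosen members were looked up by Pearson correlation over the 9 single cells, among 3440 genes above background in at least 3 of them. For Rgs5 they were Bspry (0.885), Pmepa1 (0.880), Fstl3 (0.860), Aph1a (0.860) and C1rl (0.850). Over all 15 arrays they were Pmepa1 (0.858), Dnajc14 (0.761), Khdrbs3 (0.735), Rap1a (0.695) and Cstb (0.682), so only Pmepa1 recurred. For Ndufa4l2 they were Ccdc28b (0.960), Mdfic (0.896), Olfr1394 (0.894), Col7a1 (0.884) and R3hcc1l (0.883), and 1 of these is an olfactory receptor gene of the class used to set the background. For Itga8 they were Jmjd8 (0.964), Slc27a1 (0.946), Tff1 (0.901), Fam219b (0.887) and Foxa2 (0.884), although Itga8 itself was below background in all 9 cells. Over all 15 arrays the closest were Klf2 (0.852) for Ndufa4l2 and Myh9 (0.842) for Itga8. Of the names above only Mdfic recurred for Ndufa4l2, and none for Itga8. Cells of a group share tissue, amplification and depth of signal, and the highest of 3440 correlations over 9 points is high in any case, so these names are descriptions. Between Rgs5 and Ndufa4l2 the correlation over the 9 cells was 0.578.

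Diluted and standard-labelled cortex could be compared with a test. These groups differ in dilution, kit and amplification rounds together, whose parts cannot be told apart, and in libraries whose animals are not named. Of 9 members bright enough to be tested, 7 differed between diluted and standard-labelled cortex at an adjusted p under 0.05 (limma). Diluted cortex was higher for 3 of them (38.0% of 19531 probe sets tested were) and lower for 4 (36.7%), so the share of members was close to that of probe sets in general. Rgs4 was too dim to be tested.

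Rgs5 fell by 1.60 ± 0.13 (SE) in diluted relative to standard-labelled cortex (limma adjusted p = 8.73e-06), and all 3 diluted libraries lay below all 3 standard-labelled ones. Itga8 fell by 1.34 ± 0.13 (adjusted p = 3.2e-05) and Abcc9 fell by 0.73 ± 0.12 (adjusted p = 0.000772), also without overlap. Mcam fell by 0.42 ± 0.13 (adjusted p = 0.0187), a call lost when arrays were centred on their medians (adjusted p = 0.123) or without standard-labelled library B (adjusted p = 0.0635).

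Ndufa4l2 rose by 1.51 ± 0.25 (SE, adjusted p = 0.000828), Kcnj8 rose by 0.78 ± 0.16 (adjusted p = 0.00224) and Cox4i2 rose by 0.49 ± 0.12 (adjusted p = 0.00641), each with no overlap between the libraries. The channel genes Kcnj8 and Abcc9 thus moved in opposite directions. Pdgfrb (-0.14 ± 0.10, adjusted p = 0.238) and Cspg4 (-0.09 ± 0.09, adjusted p = 0.37) did not pass. Abcc9 and Itga8 in diluted cortex, and Ndufa4l2 and Cox4i2 in standard-labelled cortex, were not above background, which bounds these differences at 1.29-fold, 1.07-fold, 1.72-fold and 1.12-fold at least. For Itga8 the bound is not strict, since standard-labelled library A was kept as measured though below background. When all 15 arrays shared the estimate of the spread, the calls of Rgs5, Ndufa4l2 and Cox4i2 were lost (adjusted p of 0.263, 0.267 and 0.716).

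Related genes were compared between the cortex groups too, beside the shares of 38.0% higher and 36.7% lower among all probe sets tested. Of the PDGF ligands and other receptors, Pdgfa (1.40 ± 0.09, SE, adjusted p = 3.28e-06) and Pdgfb (1.44 ± 0.14, adjusted p = 2.64e-05) rose in diluted cortex, while Pdgfc and Pdgfra fell, Pdgfd did not pass and Pdgfrl was too dim. Among partners and ligands of the integrin, 5 of 9 fell, including Itgb1 by 1.43 ± 0.09 (adjusted p = 2.3e-06) and Npnt by 0.93 ± 0.31 (adjusted p = 0.0239), and 0 rose. Of the 16 further pericyte genes 1 rose and 5 fell, and of the 11 mesangial genes 5 rose and 4 fell. Nothing particular to these lists is read from their counts. Ndufa4 (-0.20 ± 0.08, adjusted p = 0.0567) and Cox4i1 (-0.17 ± 0.08, adjusted p = 0.0901) did not pass, unlike their relatives Ndufa4l2 and Cox4i2; the difference between relatives was not tested.

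**Figure D4:**
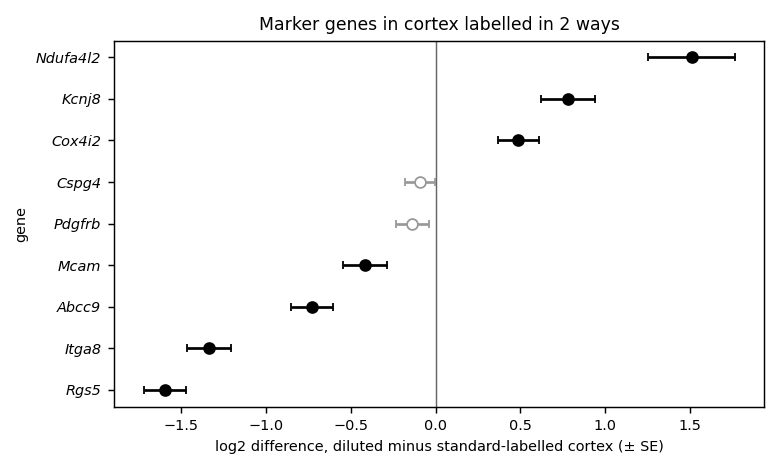
Points give the log2 difference between diluted and standard-labelled cortex for the 9 members tested, with bars of 1 SE from limma (3 libraries per group); filled points have an adjusted p under 0.05. Ndufa4l2, Kcnj8 and Cox4i2 lie to the right of 0 and Rgs5, Itga8, Abcc9 and Mcam to the left.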

How the data were processed

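The deposited table holds log2 probe set signals (2.22 to 13.98) for 35557 probe sets. Per the submitters' processing notes it was made by the authors with Affymetrix Expression Console; values were used as deposited. Of the version, algorithm and normalization, each is not given in the sources used here. The platform annotation gives 21789 probe sets 1 symbol, 1621 several and leaves 12147 unlisted. All 10 members matched RefSeq genes by identifier with 0 changed symbols. Where several probe sets carried the same symbol, the one with the highest mean signal was kept. Signals of different probe sets are not compared with each other. The number of arrays limits the precision.

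Cells were described by means, SDs and differences of means beside the median shift of the receptor probe sets. Where a group was below background on all its arrays, a lower bound was computed, after the data were seen, with each of its values raised to the background of the array. No receptor shift was subtracted, and values of the other group were kept as measured. The bound is thus not strict where some of those were below background or the shift favoured that group. Cortex groups were compared across all probe sets whose brighter group mean reached the median signal of the 6 arrays, with limma 3.58.1 in R 4.3.3 (lmFit, eBayes) and Benjamini-Hochberg adjustment, two-sided, checked on simulated data. Other values came from Python 3.11.15, numpy 2.4.6 and pandas 2.3.3, plots from matplotlib 3.10.9.

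The members and gene lists were chosen with earlier results of these data known. All members are named, with up to 4 genes per further list with the largest difference, relatives and partners of members, and others only where stated or to check labels and cell types. By the check applied, deviations of same-letter cortex libraries correlated best for A and B, but not for diluted library C (0.035 with C, 0.055 with B). Pairing by letter was left undecided and was not assumed in the main fit. Alternatives were centring, quantile normalization, other backgrounds and references, group medians, other fits and leaving out arrays.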

Additional observations from a re-analysis of the deposited data

Results flagged for a closer look

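In the 20 groups of cells examined for the 10 genes, 1 value was far from the others of its group: Cox4i2 in MM cell 14, at 11.48, where the next highest MM cell was at 7.72. Its gap was 0.832 of the range over the 4 MM cells, just past the critical value of 0.829. Such a check marks about 1 in 20 groups by chance.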

How the results depend on the processing

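The median difference of the 10 members between JG cells and diluted cortex (0.83) was 0.32 with arrays centred on their medians, 0.51 after quantile normalization, -0.22 with arrays centred on the receptors, 0.47 against standard-labelled cortex and 1.48 over the 3 members above background. For MM cells against diluted cortex (0.64) the same settings gave 0.27, 0.26, -0.20, 0.45 and, over 5 members, -0.32, and leaving out 1 array gave 0.53 to 0.67. For MM minus JG cells (-0.12) receptor centring gave 0.093 and the 3 members above background -2.68. The sign of all 3 medians thus depends on the reference. Ndufa4l2 in MM cells minus diluted cortex (-0.32) changed sign after quantile normalization (0.037) and against standard-labelled cortex (1.19). With the 95th percentile of receptors as background, 25 of 50 JG and 21 of 40 MM values passed instead of 6 and 6. With the median of all probe sets 42 and 31 did, and leaving out 1 MM cell gave 3 to 6. The shares of all genes under these settings were not computed, so nothing particular to the markers is read from these counts. In cortex, 7 members were called with the letters as a replicate block, and the block changed no call of a member. Same-letter deviations correlated at 0.156, 0.150 and 0.035 and not every library correlated best with its own letter. With all 15 arrays in the fit 4 members and 7451 probe sets were called, instead of 7 and 14599, since the spread of single cells then enters. Signals near background are bounded by it, and the cause of the other changes was not tested.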

Other observations

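MM cell 19 carried several genes of the PDGF and mesangial lists at high level, named here after their values were seen. There 3 of 6 PDGF genes and 4 of 11 further mesangial genes were above background. The counts in cells 14, 15 and 16 were 1, 1 and 1 and 2, 3 and 0. Cell 19 also had the largest share of all genes above background among MM cells (21.1%). The ligand Pdgfc measured 10.18 there, against 6.25 to 7.12 in the other MM cells, and the receptor-like gene Pdgfrl measured 10.18, against 5.72 to 7.31. Ptn, a heparin-binding growth factor, was at 11.39 in cell 19 and 10.19 in cell 14, with 7.53 in cell 15 and 5.88, below background, in cell 16. Desmin (Des), an intermediate filament of muscle and mesangium, was at 11.39 in cell 19 and 11.45 in cell 15, and at 7.10 and 7.41 in cells 14 and 16. Cd248 was at 10.24 in cell 14 and 9.59 in cell 19, the cells with the stroma progenitor gene Foxd1 above background. It was below background in cells 15 and 16. The stroma progenitor gene Meis1 did not share this pattern, being above background in cells 14 and 15 only. Pdgfrb was below background in all 4 of these cells.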
